A study of Rattus norvegicus with 12 samples.

Results

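The genes described here encode the nuclear subunits of the mitochondrial respiratory chain, followed in rat heart RNA at 2 postnatal ages. Members were the protein-coding genes whose symbols name a numbered subunit of complex I (Nduf), a subunit of complex II (Sdha to Sdhd), a subunit of complex III (Uqcr and Cyc1), a nuclear subunit of complex IV (Cox4 to Cox8) or a gene of ATP synthase (Atp5). The rule used symbols and biotype and no measured value, and it found 84 of the 16898 genes measured, under 81 distinct symbols. Complex I had 35 members, complex II 4, complex III 10, complex IV 18 and complex V, the ATP synthase, 17. Ndufa4 and its relative Ndufa4l2 were placed with complex IV, where the Ndufa4 protein is now assigned.

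The series has 12 samples of whole heart tissue of Sprague Dawley rats, 3 per age of input RNA and 3 per age of RNA enriched with an m6A antibody. Only the 6 input libraries, total RNA before enrichment, are used here, and the enriched libraries were not analysed here. The groups were hearts of postnatal day 0 and older hearts, labelled postnatal day 7, with 3 libraries each and no allele or treatment named for either. The column headers of the values carry a different number of days for the older hearts, so these are called older hearts throughout. Whether a library came from 1 animal or from a pool is not stated, so the p-values reflect how these libraries vary, and that variation may be technical.

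The respiratory chain passes electrons from NADH (complex I) or succinate (complex II) through ubiquinone to complex III, then through cytochrome c to complex IV, which reduces oxygen. Complexes I, III and IV pump protons across the inner mitochondrial membrane, and complex V lets them flow back to make ATP. Complex II is wholly nuclear encoded, whereas the other complexes also hold core subunits made from the mitochondrial genome. Several complex IV subunits exist as isoforms: Cox6a2 and Cox8b are the forms of heart and skeletal muscle in rodents, and Cox6a1 and Cox8a are the forms of most other tissues. In rodent hearts the muscle forms are known to gain on the ubiquitous forms around and after birth.

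The results turn on the genes of those isoform pairs and on Atp5if1, so their promoters are shown for comparison. Each is the 250 bases before the gene's start in RefSeq, assembly GRCr8, written 5′ to 3′ on the gene's strand, and Cox6a1 is named only. Capitals mark the letters CTTCCGG, which is the ETS-family core CCGGAAG read on the other strand.
Cox6a2, chr1:192219717-192219966, minus strand: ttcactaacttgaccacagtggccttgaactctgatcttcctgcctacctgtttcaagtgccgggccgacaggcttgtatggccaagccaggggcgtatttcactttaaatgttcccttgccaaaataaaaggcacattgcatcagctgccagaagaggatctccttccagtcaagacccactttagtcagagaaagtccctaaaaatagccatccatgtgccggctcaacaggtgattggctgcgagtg
Cox8b, chr1:205408274-205408523, minus strand: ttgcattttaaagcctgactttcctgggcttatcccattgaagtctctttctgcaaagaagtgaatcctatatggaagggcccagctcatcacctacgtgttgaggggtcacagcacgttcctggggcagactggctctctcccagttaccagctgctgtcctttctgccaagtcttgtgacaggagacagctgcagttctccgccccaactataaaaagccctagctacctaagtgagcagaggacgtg
Cox8a, chr1:213833624-213833873, minus strand: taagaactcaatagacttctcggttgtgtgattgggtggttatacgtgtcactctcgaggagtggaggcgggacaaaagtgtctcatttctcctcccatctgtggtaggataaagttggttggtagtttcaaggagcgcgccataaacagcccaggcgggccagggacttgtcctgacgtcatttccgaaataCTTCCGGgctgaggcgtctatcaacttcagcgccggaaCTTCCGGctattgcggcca
Atp5if1, chr5:150026678-150026927, minus strand: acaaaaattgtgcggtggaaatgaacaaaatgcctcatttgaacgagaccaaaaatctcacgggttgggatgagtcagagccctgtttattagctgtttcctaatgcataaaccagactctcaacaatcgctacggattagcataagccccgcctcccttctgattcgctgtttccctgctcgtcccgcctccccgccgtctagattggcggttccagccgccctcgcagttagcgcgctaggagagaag
The Cox8a promoter held 2 ETS cores, and the other 3 windows held none. No window of the 4 held the NRF1 core GCATGCGC or the estrogen-related receptor element TNAAGGTCA on either strand. CpG pairs numbered 5 in the Cox6a2 window and 4 in that of Cox8b, against 15 for Cox8a and 16 for Atp5if1. The muscle forms thus had the CpG-poor promoters of the 4.

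NRF1 and ETS-family factors such as GABP are textbook activators of nuclear respiratory genes, so the promoters of all members were searched on both strands over 300 bases, 250 before to 50 after the start. RefSeq promoters were matched for 70 of the 81 symbols. The ETS core stood in 28.6% of the members' promoters, against 18.4% of 8867 promoters of protein-coding genes tested here and 8.75% of all 33469 promoters. The NRF1 core stood in 11.4%, against 5.41% and 2.47%, and was found among others in Ndufa11, Atp5mc2, Atp5me and Atp5po. The estrogen-related receptor element stood in 4.29%, that is in Ndufb4, Sdhd and Atp5mc3, against 0.53% and 1.2%. The median CpG number was 20 in the members and 21 in the protein-coding genes tested. A match is a description of letters and not a binding site.

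The libraries held 13489816 to 16297533 reads each. Members took 2.46% to 2.59% of them at day 0 and 2.14% to 2.31% in the older hearts. Levels below are FPKM, which divides a gene's reads by its length and by the library total. Fold changes are differences of log2(FPKM + 1), older minus day 0, from limma over every gene averaging 1 FPKM or more. The call threshold was a Benjamini-Hochberg adjusted p of 0.05 over the 13117 genes tested. All 84 members passed this filter.

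Members were mostly abundant, and most varied little between the libraries of an age. Their median level over the 6 libraries was 186.7 FPKM, against 9.38 over all genes tested, and 60 of 84 (71.4%) stood above 100 FPKM, against 4.35% of all genes tested. The 5 members above 1000 FPKM were Atp5f1b, the catalytic beta subunit of ATP synthase, at 2842, Atp5if1 at 2335, Atp5mg at 1668, Cox6c at 1227 and Cox4i1 at 1214. By complex the median level was 115 FPKM for complex I, 219 for complex II, 277 for complex III, 304 for complex IV and 335 for complex V. The median coefficient of variation at day 0 was 11.2% over members, against 24.2% over all genes tested, a comparison not matched for level. In 8 members it was above 40% in at least 1 age, and 7 members stood below 20 FPKM. RefSeq names at least 1 pseudogene for 42 of the 84 members, and reads of these genes could be split with near-identical copies. Cox6a1, Atp5if1 and Ndufs5 were among them with 2 each, whereas no pseudogene was named for Cox6a2, Cox8a or Cox8b.

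Between the ages no member was called higher and 7 were called lower: Cox6a1 and Cox8a of complex IV, Atp5if1, Atp5f1d and Atp5mc3 of complex V, and Ndufs5 and Ndufb8 of complex I. Over all genes tested 3.52% were called higher and 5.73% lower, so the 8.33% of members called lower was near the background. The members' median log2 fold change was -0.13, against -0.11 over all genes tested, and 52 of 84 lay within 0.25 of 0. With quantile normalization the members' median was 0.05, so its sign depends on the scaling. The 3 libraries of each age did not overlap for 27 members: 4 were higher in older hearts (Ndufa8, Ndufa13, 1 row of Ndufv3 and Cox8b) and 23 lower, where the background was 12.2% higher and 20.3% lower. Of the 7 calls, Cox6a1, Cox8a and Atp5if1 were kept in all 14 alternative settings, and the other 4 were lost when each library was centred on its median gene or quantile normalized. The authors' deposited table, where 6.26% of the 16898 genes passed an adjusted p of 0.05 as higher and 5.53% as lower, listed Cox8b and Ndufa13 as higher and Cox6a1, Atp5if1, Cox8a, Uqcrq, Ndufb8 and Atp5f1d as lower.

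**Figure D1:**
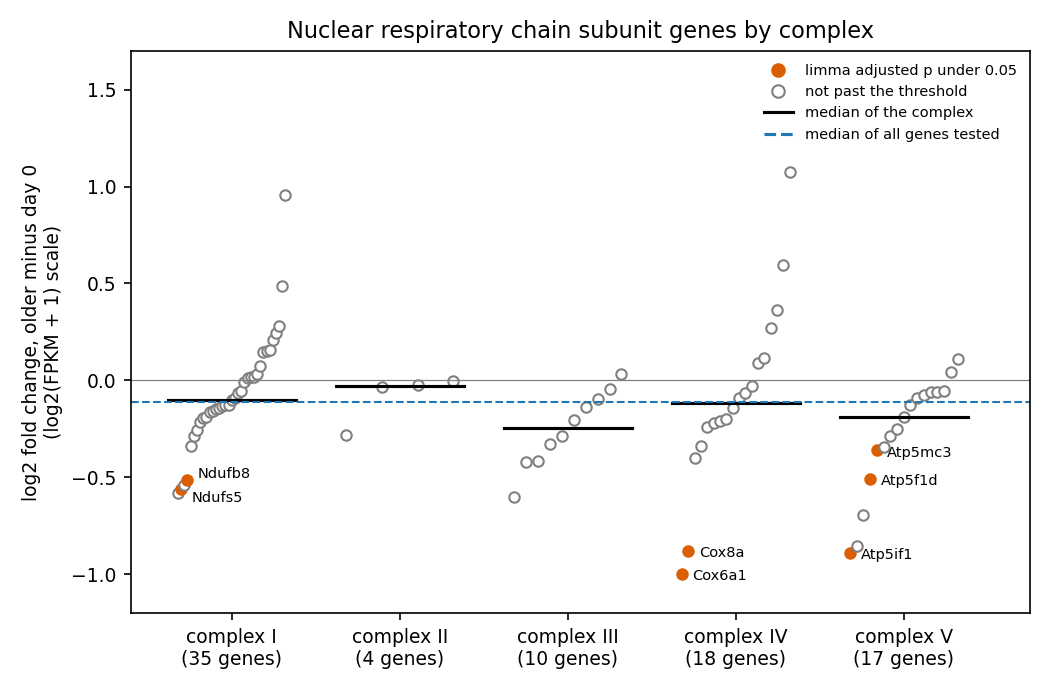
Log2 fold change of each of the 84 members (older minus day 0, on the log2(FPKM + 1) scale) by complex, 1 point per gene; filled points passed the limma threshold, black bars are medians per complex and the dashed line is the median of all genes tested. Cox6a1, Cox8a and Atp5if1 are the lowest of the 7 called members, and 52 of the 84 genes lie within 0.25 of 0.

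Samples at the 2 ages also differed in markers of other cells and in mitochondrial transcripts. Summed FPKM of 8 fibroblast markers ran from 823 to 1296 at day 0 and from 2007 to 2171 in older hearts, and 5 of the 8 were called higher, among them Dcn, Pdgfra and Col3a1. The largest parts of this sum were Col3a1 and Col1a1, at means of 338 and 275.5 FPKM at day 0 and 902.8 and 482.9 in older hearts. Col1a2, Postn and Tcf21 overlapped and were not called, and Tcf21 went the other way, from 13.2 ± 6.2 to 9.27 ± 1.2 FPKM. Summed FPKM of 10 cardiomyocyte markers ran from 65641 to 75157 at day 0 and from 55409 to 64761 in older hearts, with Myh6 called higher and Actc1 and Nppa called lower. Most of this sum was Myl2, at 38063 to 46250 and then 28788 to 37490 FPKM, which was not called (limma adjusted p = 0.193). Without overlap 3 of the 10 were higher (Myh6, Tnni3 and Ryr2) and 4 lower. The median log2 fold change of the 10 was -0.15, beside -0.11 over all genes tested. Summed endothelial markers ran from 239 to 271 and from 330 to 356, with 2 of 7 called higher. The 8 pericyte and smooth muscle markers summed to 256 to 337 and 243 to 265, the 8 macrophage markers to 44.8 to 84.6 and 44.6 to 58.2, the 5 erythroid markers to 1754 to 2091 and 1599 to 3771, the 6 skeletal muscle markers to 2521 to 2775 and 1939 to 2413, and the 3 brown fat markers to 464 to 731 and 794 to 838. None of these markers was listed at 0 in all libraries, and 1 pericyte gene (Rgs5) and 1 brown fat gene (Cidea) were called higher and Acta2 and Cnn1 lower. Most of the brown fat sum was Fabp4, at 426 to 685 FPKM at day 0 and 715 to 719.5 in older hearts, which was not called. Prdm16 of that list went the other way without overlap, from 5.96 ± 2.2 to 2.76 ± 0.45 FPKM (limma adjusted p = 0.155). Ucp1, Dio2, Adipoq, Cidec and Elovl3 of that list had no row under those symbols, so they were not part of this sum. Day 0 replicate 3 stood apart in 4 skeletal muscle markers that are lost in the sum beside Acta1 and Ckm. Tnnt3, a fast troponin, measured 0.127, 0.137 and 57.6 FPKM at day 0 and 2.88 to 4.56 in older hearts. Mylpf, a fast myosin light chain, measured 0.655, 0 and 30.6 at day 0 and at most 0.0862 in older hearts. Myh1 and Actn3 measured 6.55 and 2.56 FPKM in that library and at most 0.375 and 0 in the other 5. Without it Cox6a1, Cox8a and Atp5if1 were still called lower (adjusted p = 0.00712, 0.0116 and 0.009), 8 members in all were called lower, and the members' median log2 fold change was -0.18. The 13 protein genes of the mitochondrial genome took 7.2% to 8.99% of reads at day 0 and 10.5% to 12% in older hearts, with Mt-nd5, Mt-cyb and Mt-co1 called higher and Mt-nd6 lower. In whole tissue, fewer cells of a type and less RNA per cell cannot be told apart, and the part of these shifts in the values of the members was not tested.

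Cytochrome c oxidase, complex IV, held the clearest change by isoform. Cox6a1, the ubiquitous form of subunit VIa, measured 533, 453 and 387 FPKM at day 0 and 201, 228 and 254 in older hearts. All 3 older libraries lay below all 3 of day 0, a 2.01-fold fall of the mean from 457.7 ± 72.9 to 227.6 ± 26.5 FPKM (SD, n = 3), with a log2 fold change of -0.999 ± 0.14 (SE) and a limma adjusted p of 0.00791. Its muscle partner Cox6a2 measured 542, 495 and 476 FPKM at day 0 and 494.5, 638 and 513 in older hearts, so its groups overlapped. Cox6a2 had a log2 fold change of 0.11 ± 0.12, with a 95% interval from -0.17 to 0.40 and a limma adjusted p of 0.605. At day 0 the pair was close to even in FPKM, and in older hearts Cox6a2 was 2.02 to 2.8 times its partner in each library.

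Cox8a, the ubiquitous form of subunit VIII, measured 322, 361 and 352 FPKM at day 0 and 169, 209 and 185 in older hearts. The groups did not overlap, and the mean fell 1.84-fold from 344.9 ± 20.6 to 187.4 ± 20.1 (log2 fold change -0.88 ± 0.11, limma adjusted p = 0.00478). Cox8b, the form of rodent heart and muscle, measured 253, 217 and 154 FPKM at day 0 and 308, 286 and 333 in older hearts. Every older library of Cox8b was above every day 0 library, and its log2 fold change was 0.60 ± 0.18, but its limma adjusted p was 0.0839. Cox8b passed as higher on recovered reads with voom (adjusted p = 0.0323), with quantile normalization (0.0285) and in the authors' deposited table (0.00644), and over all alternatives its adjusted p ran from 0.0285 to 0.215.

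Expressed as a share of the pair's FPKM, Cox6a2 was 50.5%, 52.2% and 55.1% at day 0 and 71.1%, 73.7% and 66.9% in older hearts. The mean share went from 52.6 ± 2.4% to 70.6 ± 3.4%, a difference of 17.9 percentage points. Cox8b was 44.1%, 37.5% and 30.4% of its pair at day 0 and 64.6%, 57.8% and 64.3% in older hearts, with means of 37.3 ± 6.8% and 62.3 ± 3.9%. In FPKM the more abundant member of the pair thus changed from Cox8a to Cox8b. Before division by length (319 bases for Cox8b, 495 for Cox8a), older replicate 2 had 1468 reads for Cox8b and 1663 for Cox8a. Older replicates 1 and 3 had more reads for Cox8b. The shares of neither pair overlapped between the ages, and each pair gave a 2-sided exact permutation p of 0.1, the smallest that 3 against 3 libraries allow. The summed FPKM of the Cox6a pair ran from 863 to 1075 at day 0 and from 696 to 866 in older hearts, and that of the Cox8 pair from 506 to 578 and from 477 to 518. Without day 0 replicate 3, which stood apart in skeletal muscle markers, the differences were 19.2 percentage points for Cox6a2 and 21.4 for Cox8b, and the log2 fold changes of Cox6a2 and Cox8b were 0.07 and 0.39 (limma adjusted p = 0.764 and 0.0836). The share of a pair does not change when a whole library is rescaled.

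**Figure D2:**
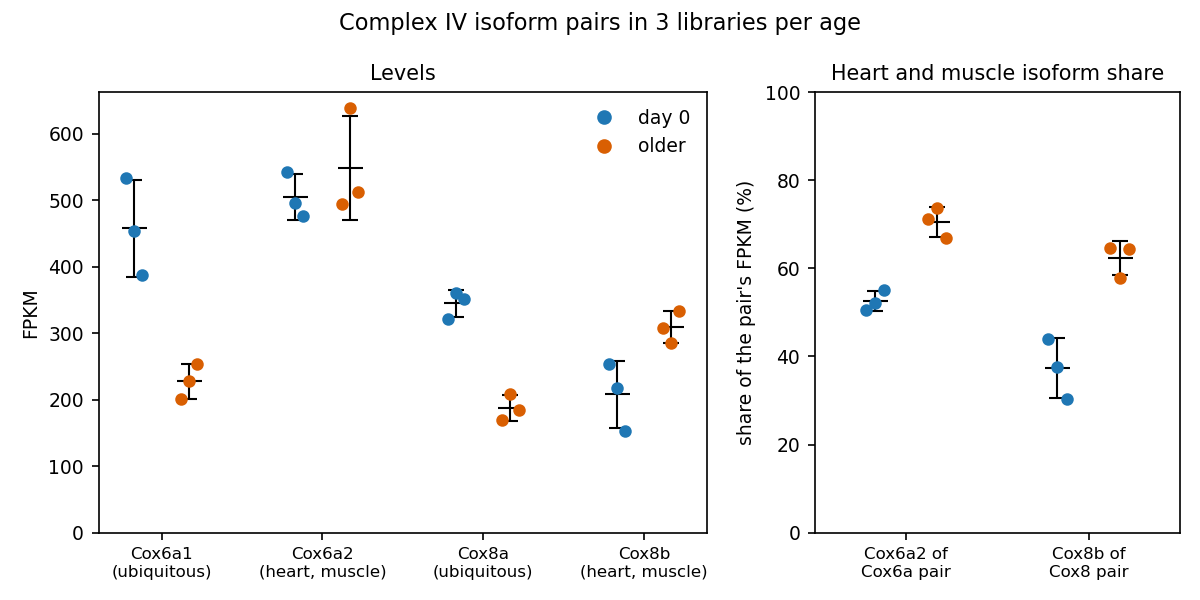
FPKM of the Cox6a and Cox8 isoform genes (left) and the muscle form's share of its pair in percent (right), with 1 point per library, 3 libraries per age, and bars for the mean and SD. The ubiquitous forms are lower in every older library, and the muscle share is 66.9% to 73.7% for Cox6a2 and 57.8% to 64.6% for Cox8b in older hearts.

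In the other isoform pairs measured, the minor form stayed below 2% of its pair at both ages. Cox4i2, the lung and oxygen-responsive form of subunit IV, was 0.35% to 0.498% of its pair at day 0 and 0.395% to 0.81% in older hearts (exact permutation p = 0.4). Ndufa4l2, a hypoxia-induced relative of Ndufa4, was 0.373% to 1.36% and 0.909% to 1.92% (exact permutation p = 0.5). Cox6b2, the testis form of subunit VIb, was near the detection limit: it was listed at 1.17, 0 and 0 FPKM at day 0 and at 2.95, 1.59 and 0.991 in older hearts. The share of Cox6b2 stayed at or below 0.754% of its pair, with non-overlapping groups and an exact permutation p of 0.1. The pairs of Cox7a1 with Cox7a2 and of Cox7b2 with Cox7b could not be analysed, because no row carried the symbols Cox7a1, Cox7a2 or Cox7b2.

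The remaining complex IV subunits were level or somewhat lower. Cox4i1, the main form of subunit IV, measured 1214, 1181 and 1280 FPKM at day 0 and 1081, 1248 and 1282 in older hearts, a log2 fold change of -0.03. Cox6c, the most abundant complex IV gene, went from 1374 ± 229 to 1080.0 ± 120 (log2 fold change -0.34, limma adjusted p = 0.203) with overlapping groups. Cox7a2l, the supercomplex factor SCAF1, went from 123 ± 10.5 to 93.3 ± 8.4 FPKM without overlap (log2 fold change -0.40, limma adjusted p = 0.0702), and passed without day 0 replicate 3 (0.0474). Ndufa4 stood at 284 ± 11.4 and 271 ± 8.6 FPKM. Cox6b1 has 2 rows, of which the abundant one went from 494 ± 8.8 to 419 ± 39.2 and the other stood at 17.6 ± 10.5 and 16.7 ± 4.5, and reads could be split between such rows.

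Of the 3 complex V genes called lower, its inhibitor had the largest fold change. Atp5if1, the inhibitory factor IF1 that blocks ATP hydrolysis by the synthase, measured 2893, 2803 and 3404 FPKM at day 0 and 1767, 1605 and 1536 in older hearts. The groups did not overlap, and the mean fell 1.85-fold from 3033 ± 324 to 1636 ± 119 (log2 fold change -0.89 ± 0.11, limma adjusted p = 0.00552). Atp5if1 had 11930 to 28677 reads per library. Against Atp5f1b, the beta subunit it contacts, Atp5if1 was at a FPKM ratio of 0.996, 0.981 and 1.16 at day 0 and 0.689, 0.536 and 0.55 in older hearts. Atp5f1b itself measured 2904, 2856 and 2939 FPKM at day 0 and 2563, 2998 and 2789 in older hearts, with a log2 fold change of -0.06 and overlapping groups.

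The head and central stalk of the synthase (the F1 sector) were mostly level, with log2 fold changes of -0.09 for Atp5f1a (alpha), -0.06 for Atp5f1b (beta), -0.05 for Atp5f1c (gamma) and 0.11 for Atp5f1e (epsilon). Its delta subunit Atp5f1d was called lower, at 95.5, 98.4 and 104 FPKM at day 0 and 68.2, 66.1 and 74.7 in older hearts (log2 fold change -0.51 ± 0.10, limma adjusted p = 0.0229). Without any 1 library the Atp5f1d call was lost, with adjusted p up to 0.0872, except without day 0 replicate 3 (0.0396). Beside the c-subunit genes described next, 2 more subunits had non-overlapping, lower values in older hearts. They were Atp5mg, at 1834 ± 81.9 and 1503 ± 32.8 FPKM and with 8 pseudogenes in RefSeq, and Atp5po, the stalk subunit OSCP, at 357 ± 8.8 and 314 ± 29.4. Atp5pb, another stalk subunit, was listed at 2.32 to 8.3 FPKM, far under its stalk partners, and RefSeq names 3 pseudogenes for it, so its level is uncertain. Atp5md, a small membrane subunit, was also low and varied widely, at 36.2, 13.7 and 5.78 FPKM at day 0 and 5.52, 6.25 and 12.3 in older hearts, with overlapping groups (log2 fold change -0.85 ± 0.59, limma adjusted p = 0.411).

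The rotor ring of the synthase is built from c subunits made by a set of 3 genes with the same mature protein. Atp5mc3 measured 592, 597 and 609 FPKM at day 0 and 483, 471 and 447 in older hearts (log2 fold change -0.36 ± 0.08, limma adjusted p = 0.0371). Atp5mc1 went from 391 ± 23.1 to 309 ± 35.9 FPKM without overlap but did not pass (adjusted p = 0.0981), and Atp5mc2 stood at 97.9 ± 37.2 and 95.4 ± 6.3. Their shares of the set were 35.9%, 8.92% and 55.2% for Atp5mc1, Atp5mc2 and Atp5mc3 at day 0 and 35.4%, 11% and 53.7% in older hearts, with exact permutation p of 0.8, 0.5 and 0.6. The call on Atp5mc3 was lost without any 1 library, at adjusted p of 0.0554 to 0.122.

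**Figure D3:**
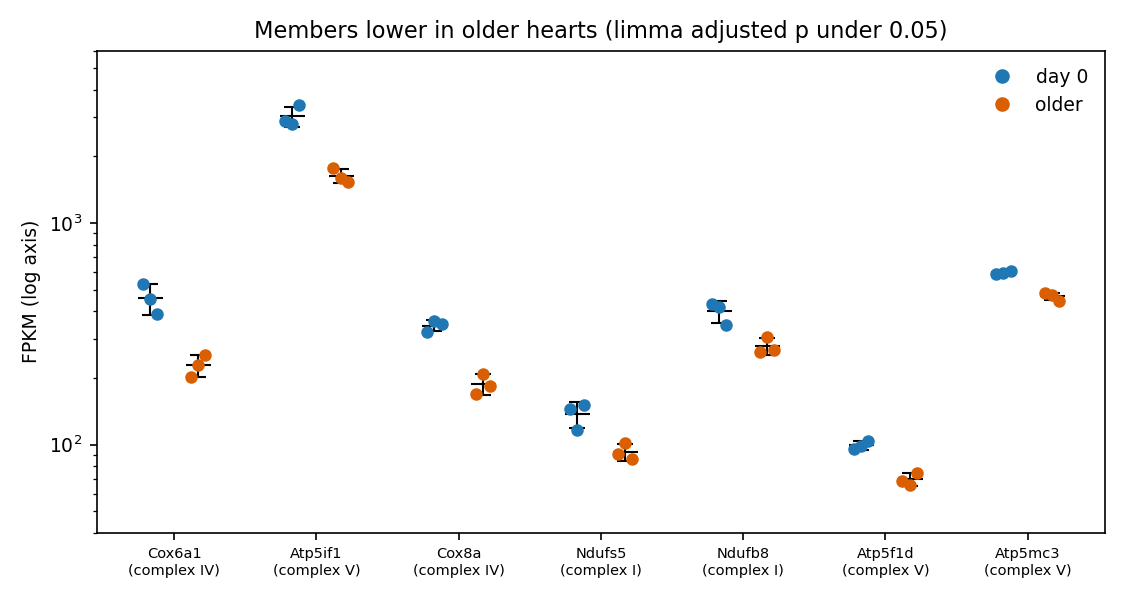
FPKM on a log axis of the 7 members called lower in older hearts, 1 point per library with the mean and SD of 3 libraries per age. The groups do not overlap for any of the 7 genes, and the gap is widest for Cox6a1, Atp5if1 and Cox8a.

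Complex I was close to level. None of its core subunits, which between them carry the flavin and iron-sulfur clusters, was called, and those described here had log2 fold changes from -0.15 (Ndufs1) to 0.15 (Ndufs8). Ndufv1, the NADH-binding subunit, measured 240, 254 and 236 FPKM at day 0 and 229, 220 and 219.7 in older hearts, and Ndufs1, the largest core subunit, 177, 218 and 213 and then 190.3, 181 and 176. The Ndufv1 groups did not overlap, and those of Ndufs1 did. Ndufv2 stood at 299 ± 26.4 and 271 ± 29.4 FPKM, Ndufs3 at 74.5 ± 3.5 and 75.3 ± 4.4, Ndufs7 at 147 ± 3.2 and 155 ± 13.3 and Ndufs8 at 59.7 ± 3.7 and 66.2 ± 5.7.

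Among the 28 accessory rows of complex I, Ndufs5 and Ndufb8 were called lower. Ndufs5 measured 145, 117 and 152 FPKM at day 0 and 90.7, 102 and 85.7 in older hearts (log2 fold change -0.56 ± 0.13, limma adjusted p = 0.0406), and Ndufb8 431, 419 and 348 and then 261, 306 and 268 (log2 fold change -0.52 ± 0.12, limma adjusted p = 0.0372). Neither pair of groups overlapped, and each call was kept in 1 of the 6 fits that left out a library: Ndufs5 without day 0 replicate 2 (adjusted p = 0.038, up to 0.129 in the others) and Ndufb8 without day 0 replicate 3 (0.0192, up to 0.115 in the others). Ndufa13, also known as Grim19, measured 128, 95.2 and 81.9 FPKM at day 0 and 149, 129 and 145 in older hearts, without overlap (log2 fold change 0.49 ± 0.17, limma adjusted p = 0.114). It passed without day 0 replicate 1 (0.0434). Ndufc2 went from 93 ± 3.8 to 63.3 ± 17.6 FPKM (log2 fold change -0.58, limma adjusted p = 0.0986) and passed without older replicate 1 (0.0316).

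The highest log2 fold change of complex I was that of Ndufa3, which did not pass (limma adjusted p = 0.394) and varied widely within each age. It measured 92.2, 21.5 and 43.6 FPKM at day 0 and 36.3, 144 and 125 in older hearts, a log2 fold change of 0.96 ± 0.64. Its coefficient of variation was 69% at day 0 and 56.5% in older hearts, against a complex I median of 11.1% and 10.1%. Ndufb9, the most abundant complex I gene, stood at 679 ± 79.1 and 592 ± 20.9 FPKM. Ndufv3 has 2 rows, at 50.5 ± 7 and 61.4 ± 6.2 FPKM and at 1.26 ± 0.72 and 1.54 ± 1.68. A row named Ndufs6 exists as a processed pseudogene, outside the rule, at 0.879 to 8.19 FPKM.

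Complex II, succinate dehydrogenase, did not change by the test in any of its 4 genes. Sdha, the flavoprotein, measured 331, 327 and 331 FPKM at day 0 and 301, 325 and 349 in older hearts. Sdhb, the iron-sulfur subunit, stood at 284 ± 37.8 and 276 ± 13.5, and Sdhd, a membrane anchor, at 158 ± 21.4 and 157 ± 9.7. Sdhc, the other anchor, measured 169, 159 and 130 FPKM and then 127, 123 and 124, without overlap (log2 fold change -0.28, limma adjusted p = 0.187), and passed only without day 0 replicate 3 (0.044) among the 6 fits that left out a library.

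In complex III no gene was called. Of its 10 rows 9 had negative log2 fold changes, beside 7686 of the 13117 genes tested, and 4 (40%) were lower without overlap, beside 20.3% of all genes tested. The 4 were Uqcrq, Uqcrfs1 and both rows of Uqcrb, so Uqcrb is counted 2 times. Uqcrq, a small ubiquinone-binding subunit, measured 251, 213 and 170 FPKM at day 0 and 121, 152 and 141 in older hearts (log2 fold change -0.60 ± 0.16, limma adjusted p = 0.0607), and its groups did not overlap. It passed when only genes averaging 5 FPKM or more were tested (0.0491), on recovered reads (0.0097), without day 0 replicate 3 (0.0231) and in the authors' deposited table (0.0108). Uqcrfs1, the Rieske iron-sulfur protein and the complex III row with the highest mean, measured 529.9, 519 and 553 FPKM and then 412, 464 and 436 without overlap (log2 fold change -0.29 ± 0.09, limma adjusted p = 0.0858). Uqcrb has 2 rows, at 525 ± 62.6 and 418 ± 49.2 and at 221 ± 24 and 191 ± 1.7 FPKM, neither called.

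The core proteins Uqcrc1 and Uqcrc2 stood at 295 ± 19 and 302 ± 14.2 and at 279.9 ± 24.3 and 254 ± 8.7 FPKM. Cyc1, cytochrome c1, stood at 195 ± 21 and 182 ± 15.7. Uqcrh, the hinge protein, differed within older hearts, at 393, 189 and 180.1 FPKM against 288, 289.6 and 382 at day 0, and passed as lower without older replicate 1 (adjusted p = 0.0468).

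Summed over each complex, the nuclear subunit genes gave lower totals in older hearts for complexes III, IV and V and overlapping totals for I and II. For complex IV the gap was narrow, from 6822.5 FPKM in day 0 replicate 3 to 6794.2 in older replicate 2. All 84 rows summed to 30008, 28212 and 27837 FPKM at day 0 and 23957, 25408 and 24487 in older hearts, a change of -14.2%. The change was -6.15% for complex I, -4.51% for complex II, -14.7% for complex III, -13.1% for complex IV and -19.3% for complex V. Without day 0 replicate 3 these were -8.56%, -6.52%, -15.3%, -17% and -18.5%, and the totals of complex I then no longer overlapped. With quantile normalization complexes I and II turned to higher sums, at 5.98% and 10.1%. Complexes III, IV and V stayed lower, but each by less than above. The median log2 fold changes of complexes III and IV were then -0.06 and 0.03. Without that scaling the median over all genes tested was itself -0.11. Complex V without Atp5if1 changed by -9.98% from 8700 ± 274 to 7832 ± 377, still without overlap. Complex IV without Cox6a1 and Cox8a changed by -8.88%, and its groups overlapped, which rested on day 0 replicate 3. These are sums of FPKM, which is a share of each library, and the reads of the mitochondrial genome were a larger share of the older libraries.

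**Figure D4:**
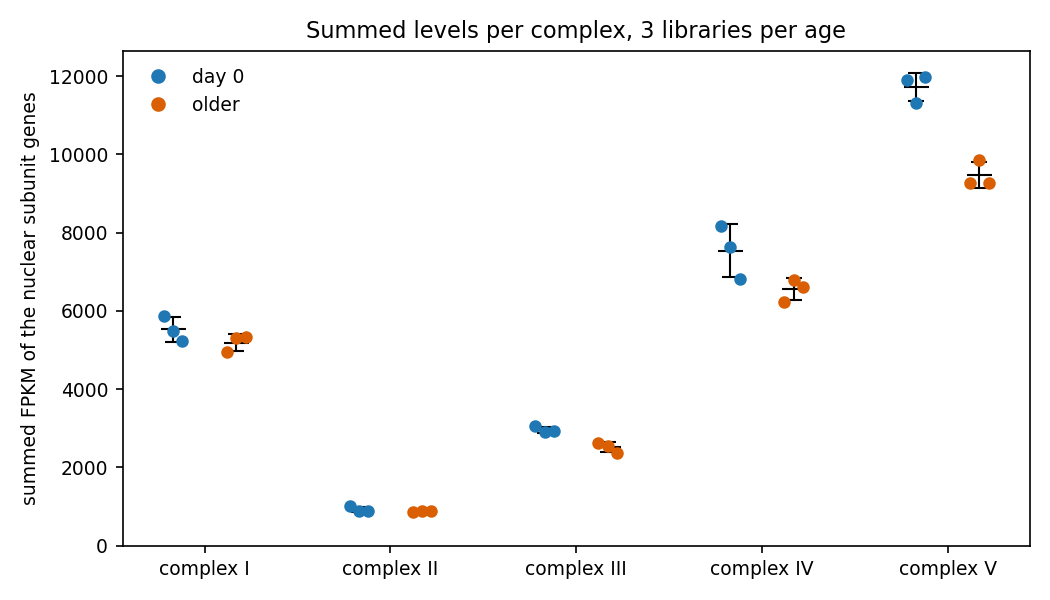
Summed FPKM of the nuclear subunit genes of each complex, 1 point per library, 3 libraries per age, with the mean and SD. Complexes III, IV and V are lower in all 3 older libraries, complex IV by a narrow gap, and complexes I and II overlap.

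Genes around the chain that are not subunits were read the same way. None of 18 tested complex I assembly factors, 3 complex II factors or 4 complex V factors was called, and the lowest values were -1.12 for Ndufaf7 (limma adjusted p = 0.0607) and -0.90 for Atpaf1 (0.0569). Of 6 complex III factors Uqcc3 was called lower, from 25 ± 2.7 to 13.8 ± 2 FPKM (log2 fold change -0.81, limma adjusted p = 0.0239). Of 23 complex IV factors Coa5 was called lower, from 155 ± 18.5 to 106 ± 3.3 FPKM (log2 fold change -0.54, limma adjusted p = 0.0294). The median log2 fold changes were -0.34, -0.61, -0.13, -0.13 and -0.16 for the factors of complexes I to V, beside -0.11 over all genes tested.

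Among 15 tested genes of the mobile carriers and of ubiquinone synthesis, 2 were called higher and 1 lower. Coq8a, an atypical kinase of ubiquinone synthesis, measured 20.7, 22 and 19.5 FPKM at day 0 and 98.5, 104 and 111 in older hearts, the largest log2 fold change in these lists at 2.28 ± 0.11 (limma adjusted p = 0.000222). Coq10a, a ubiquinone-binding protein, went from 9.9 ± 2.4 to 20.8 ± 3.7 FPKM (log2 fold change 1.01, limma adjusted p = 0.0296), and the methyltransferase Coq5 from 26.6 ± 2 to 15.5 ± 3.3 (log2 fold change -0.76, limma adjusted p = 0.0432). Cycs, somatic cytochrome c, stood at 67.8 ± 13.1 and 70 ± 20.9 FPKM.

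The ADP/ATP carriers, which exchange the product of complex V for ADP, also come as a muscle and a ubiquitous form. Slc25a5, the ubiquitous form, measured 212, 199.6 and 199.8 FPKM at day 0 and 108, 115 and 99.1 in older hearts, without overlap (log2 fold change -0.92 ± 0.10, limma adjusted p = 0.00258). Slc25a4, the heart and muscle form, measured 4647, 3718 and 3485 FPKM and then 3022, 3371 and 3171, also without overlap, with a log2 fold change of -0.30 ± 0.13 that did not pass (limma adjusted p = 0.203). The phosphate carrier Slc25a3 stood at 514 ± 21.6 and 463 ± 54.6 FPKM with overlapping groups.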

How the data were processed

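RNA was measured in 6 input libraries of rat heart, 3 per age. Libraries were made with SMART cDNA after depletion of ribosomal RNA, per the labels' protocols. The authors deposited FPKM per gene and library, together with their own log2 fold change and p-value per gene. HISAT2, HOMER 4.10 and rn5 appear in the submitters' processing notes. The read counter, the annotation, the strand setting and their test were not given in the sources used here. Whole reads were recovered from the FPKM steps of 16898 genes (100% at a relative tolerance of 1e-12).

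Ages were compared with limma 3.58.1 in R 4.3.3 on log2(FPKM + 1), eBayes with trend, for genes averaging 1 FPKM or more. No count model was the main test. Reads cover counting error only. The fit and the recovery were tested on simulated data. Isoform shares used 2-sided exact permutation tests. The fold change on this scale understates changes of low genes. Named genes were the isoform pairs, c-subunit genes, called members, the extremes of each complex and of each companion list, complex I core, complex II, duplicate symbols and non-overlapping members with a log2 fold change of at least 0.5 in size; others were named after their values were seen. Members and lists were chosen with earlier results of these data known. Protein sequences were not used here, and 1 gene is not reported here.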

Additional observations from a re-analysis of the deposited data

How the results depend on the processing

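Cox6a1, Cox8a and Atp5if1 kept their calls in all 14 alternatives (3 scalings, other filters and pseudocount, voom on recovered reads, replicate block, and 6 fits without 1 library), and over 42 named members 539 of 583 alternative values kept their side of the threshold, 36 were no longer called and 8 became called. No called value changed sign, whereas 39 values that were called in neither fit did. The 3 other scalings, which move the median of all genes from -0.11 to 0.01 (centred on the median gene), -0.02 (quantile) and -0.07 (without mitochondrial transcripts), change the rest: among all calls 38.1% were higher, against 57.1%, 56.4% and 44.5%. Members called lower numbered 7, against 3 when centred, 3 with quantile normalization, 3 with the replicate block, 10 with voom and 3 to 8 without 1 library, and members called higher 0, against 3 with quantile normalization (Cox8b, Ndufa8, Ndufb10), 1 with voom (Cox8b) and 0 to 1 without 1 library. The median log2 fold change of members was -0.0065 centred and 0.0515 with quantile normalization, and those of complexes I to IV were 0.0205, 0.0905, -0.127 and 0.0042 centred. With quantile normalization the medians of complexes I to V were 0.0759, 0.157, -0.0615, 0.0311 and 0.00, and the changes of summed FPKM were -4.52% for all members and 5.98%, 10.1%, -1.76%, -4.09% and -11.5% for complexes I to V. The median of complex IV was -0.21 to -0.0772 without 1 library. Over all genes voom called 730 higher and 1107 lower, the replicate block 217 and 284, and fits without 1 library 167 to 528 higher and 266 to 731 lower, against 462 and 752. Same-numbered libraries deviated with correlations of -0.05 to 0 and differently numbered ones with -0.02 to 0.06, so no shared effect of the replicate number was seen. With 3 libraries per age these values cannot settle whether the numbers pair the libraries. The causes of these shifts were not tested, and the limits of 3 libraries per age apply to each value.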
